A study of Mus musculus with 4 samples.

Results

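The Wnt module of fetal mouse leg muscle was examined, meaning the secreted Wnt ligands, their Frizzled receptors, and the proteins outside the cell that tune both. Its members were all genes in the feature list whose symbol is Wnt, Fzd, Sfrp, Rspo or Dkk followed by a number (with a or b for some Wnt genes), plus *Lgr4*, *Lgr5* and *Lgr6*. This rule used names alone and no measured value. It found 44 of 32285 genes: 19 Wnt, 10 Fzd, 4 Sfrp, 4 Rspo, 4 Dkk and 3 Lgr genes. *Frzb* and *Wif1*, which also bind Wnt proteins, do not match the rule and are described with the rest of the pathway.

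Transcripts of single cells were counted by droplet sequencing, with tags that tell cells apart and unique molecular identifiers (UMIs) that tell transcripts apart. Leg muscles came from E18.5 fetuses, near the end of gestation, with 2 libraries from wild-type (WT) fetuses and 2 from littermates without *SYISL* (KO), whose locus lies within *Synpo2* and gives rise to a long non-coding RNA. Both groups came from matings of heterozygous parents. No strain, other allele or treatment was named for either group. The 2 libraries of a genotype are biological replicates by the series description, though how many fetuses entered each, and of which sex, was not stated.

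The deposited matrices held 41741 cells, and 36969 passed the study's own limits, from 8177 to 10461 per library. The median depth per cell lay between 9118 and 11427 UMIs. Pairs of libraries shared 15 to 27 cell barcodes, at most 0.330% of the smaller one. No feature carried the name *SYISL*, so the knockout was not checked at its target. KO replicate 2 stood apart by sex-linked transcripts, with 131038 *Xist* UMIs against at most 5 in each of the other libraries. Y-linked transcripts (*Ddx3y*, *Eif2s3y*, *Kdm5d* and *Uty*) gave 105 UMIs there, against 25478 and 27856 in WT and 26684 in KO replicate 1. By these transcripts both WT libraries resembled KO replicate 1, so the pattern was not balanced between the genotypes. Within the KO group it cannot be told apart from the replicate. KO replicate 1 held few chondrocyte-like cells, 1.70% of its kept cells against 4.30% to 9.27% in the other libraries. Values without a KO library are given below wherever that library changes a call.

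Wnt proteins are lipid-modified ligands that act over short distances. They bind Frizzled receptors together with the co-receptors Lrp5 and Lrp6, which stabilises beta-catenin and lets it work with TCF and LEF factors on target genes, or they signal without beta-catenin through Ror and Ryk receptors and the planar polarity proteins. Sfrp proteins bind Wnts outside the cell, Dkk1 and Dkk2 act on the co-receptors, and R-spondins, bound by Lgr receptors, protect Frizzled from removal by the ligases Znrf3 and Rnf43. In the limb, Wnt signals take part in bone, cartilage and muscle formation, and in adult muscle Wnt ligands from several sources act on satellite cells and fibroblasts.

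Cells were clustered without any member of the module or of the pathway list among the genes used, and clusters were named from other markers. FAP-like cells, which carry the markers of fibro-adipogenic progenitors such as *Dcn* and *Pdgfra*, numbered 18665. Myogenic-like cells numbered 6720, tenocyte-like cells 2299, chondrocyte-like cells 2186, glial-like cells 1833 and smooth muscle or pericyte-like cells 1666. The smallest classes were endothelial-like cells with 1256, macrophage-like cells with 763 and mast-like cells with 284. The leading genes went with the names, for example *Tnmd* and *Scx* in tenocyte-like cells and *Col2a1* and *Col9a1* in chondrocyte-like cells. A level in CPM is the number of UMIs of a gene divided by all UMIs of the class in a library and multiplied by 1000000. Levels across classes are a description over 4 libraries with no test.

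The module summed to 821 ± 23.7 CPM over all kept cells. Fibroblasts carried most of it. FAP-like cells summed to 1126 ± 27.2 CPM, followed by glial-like cells with 938 ± 40.0 CPM, chondrocyte-like cells with 777 ± 29.0 CPM and tenocyte-like cells with 763 ± 64.0 CPM. Myogenic-like cells had 327 ± 7.35 CPM, of which 164 CPM were Frizzled receptors and 78.2 CPM were Lgr receptors. Wnt ligands there summed to 30.1 CPM, against 168 CPM in FAP-like cells and 110.3 CPM in glial-like cells. Macrophage-like cells had the lowest sum, 54.3 ± 9.12 CPM.

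**Figure D1:**
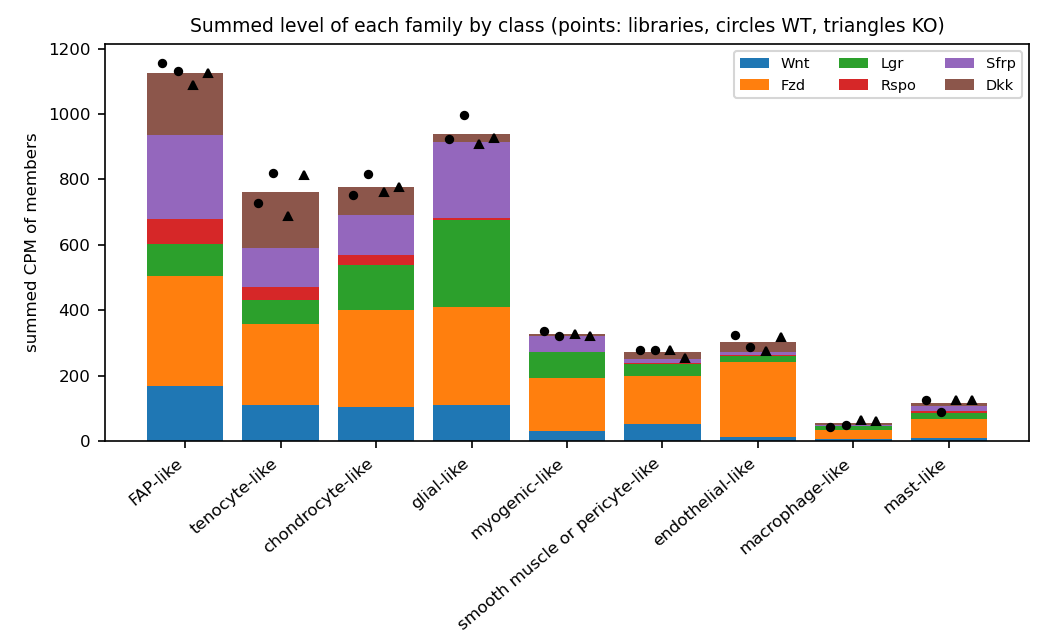
Summed CPM of each gene family in 9 cell classes, stacked as the mean over 4 libraries, with points for the sum of all members in each library. FAP-like and glial-like cells have the tallest bars, and the Sfrp, Rspo and Dkk parts are small in myogenic-like, endothelial-like and macrophage-like cells.

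Of the 44 members, 28 reached a mean of 10 CPM in at least 1 class or fibroblast sub-cluster, and 16 did not. By class, 10 of the 28 were highest in FAP-like cells, 7 in glial-like cells, 5 in chondrocyte-like cells, 4 in tenocyte-like cells and 2 in endothelial-like cells. The limit could be met in sub-clusters of FAP-like cells but not in clusters within other classes, which favours FAP-like cells in this count. *Wnt10b* met it only in such a sub-cluster, and *Wnt16*, above 10 CPM in a glial cluster, was left out. None of the 28 was highest in myogenic-like cells. In 23 of the 28 the lowest library of the leading class lay above the highest library of the next class. The 5 exceptions, where the leading class and the next overlapped, were *Fzd7*, *Lgr6*, *Rspo2*, *Wnt5b* and *Wnt9a*.

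**Figure D2:**
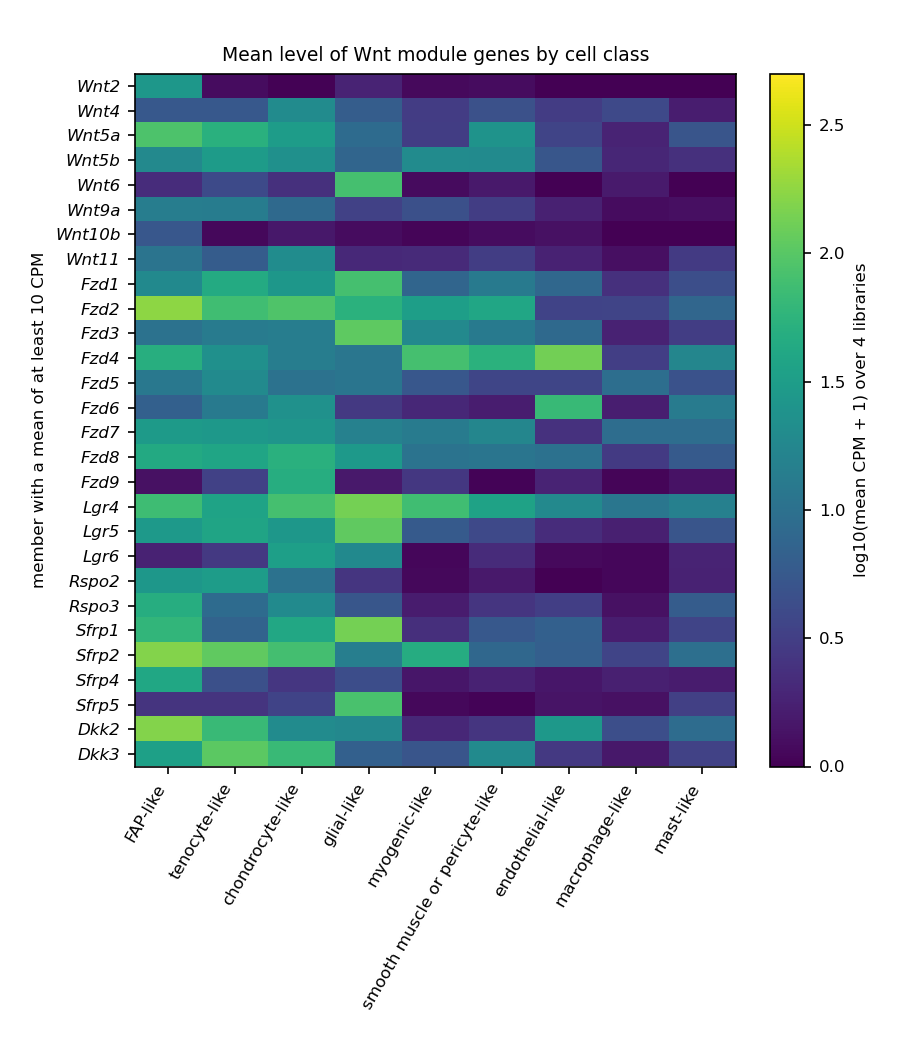
Mean CPM over 4 libraries, as log10(CPM + 1), of the 28 members that reached 10 CPM (rows) in 9 cell classes (columns). Bright cells stand in different columns for different members: *Wnt6*, *Sfrp5*, *Fzd3* and *Lgr5* in glial-like cells, *Fzd4* and *Fzd6* in endothelial-like cells, *Fzd9* and *Lgr6* in chondrocyte-like cells.

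Among the ligands, *Wnt5a*, the best known activator of signalling without beta-catenin, was the most abundant. In FAP-like cells it stood at 94.9 and 83.4 CPM in WT and 94.8 and 71.9 CPM in KO, a mean of 86.2 ± 11.0 CPM. Tenocyte-like cells followed with 51.0 ± 7.17 CPM and smooth muscle or pericyte-like cells with 23.6 ± 3.16 CPM. In myogenic-like cells it was 2.13 ± 0.110 CPM, or 2.20% to 2.77% of the level in FAP-like cells of the same library. The FAP marker *Dcn* stood there at 0.695% to 0.816%, and the summed FAP markers at 2.59% to 2.96%. Their part in the *Wnt5a* level was not tested. Its relative *Wnt5b* was spread more evenly. It measured 28.4 and 37.5 CPM in WT and 21.5 and 30.2 CPM in KO in tenocyte-like cells, 21.5 ± 3.33 CPM in chondrocyte-like cells and 19.1 ± 2.44 CPM in myogenic-like cells, where it was the leading ligand.

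*Wnt2*, a ligand known from lung and vessel development, stood in FAP-like cells at 26.3 and 23.7 CPM in WT and 28.1 and 25.2 CPM in KO. The next class, glial-like cells, was 30.8-fold lower with 0.838 ± 0.840 CPM. *Wnt6* led in glial-like cells instead. Its level in glial-like cells was 83.3 and 84.6 CPM in WT and 71.0 and 78.3 CPM in KO, and the next class, tenocyte-like cells, had 3.04 ± 1.05 CPM, which is 26.1-fold lower. Both patterns held in every library, since the leading class never overlapped the next.

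Chondrocyte-like cells led for *Wnt11* and *Wnt4*, ligands known from convergent extension movements and from kidney and gonad development. *Wnt11* measured 21.1 and 24.4 CPM in WT and 15.5 and 18.2 CPM in KO there. *Wnt4* measured 19.2 and 18.3 CPM in WT and 16.3 and 21.9 CPM in KO. *Wnt9a*, which is known for a part in joint formation, was even between FAP-like cells with 13.8 and 13.1 CPM in WT and 12.3 and 12.1 CPM in KO and tenocyte-like cells with 12.8 ± 1.98 CPM. *Wnt10b*, a ligand known to restrain fat cell formation, was low in FAP-like cells as a whole, with 3.96 and 4.09 CPM in WT and 5.07 and 4.26 CPM in KO, and passed 10 CPM only in a sub-cluster of them.

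The remaining 11 Wnt genes stayed below 10 CPM in every class and fibroblast sub-cluster. Over all kept cells *Wnt2b* had 826 UMIs, *Wnt16* 424, *Wnt1* 222, *Wnt10a* 78 and *Wnt8b* 56. *Wnt3* and *Wnt3a* had 12 UMIs each, *Wnt7a* 11, *Wnt7b* 8, *Wnt8a* 2 and *Wnt9b* 1. At these counts no class can be set above another for the last 6 genes.

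Several Wnt genes lie side by side in the mouse genome, and neighbours differed widely in counts. In GRCm38, the build of the deposited counts (mm10), *Wnt9a* (ENSMUSG00000000126, plus strand) and *Wnt3a* (ENSMUSG00000009900, minus strand) lie 16175 bases apart on chromosome 11 with no coding gene between them in the GENCODE annotation. *Wnt9a* had 3516 UMIs and *Wnt3a* 12. On chromosome 15, *Wnt10b* (ENSMUSG00000022996, minus strand) and *Wnt1* (ENSMUSG00000022997, plus strand) are 11706 bases apart, with 940 and 222 UMIs. *Wnt6* and *Wnt10a*, both on the plus strand of chromosome 1 and 6193 bases apart, had 2107 and 78 UMIs. *Wnt3* and *Wnt9b*, 24328 bases apart on chromosome 11, had 12 and 1.

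The promoters of the *Wnt9a* and *Wnt3a* pair and of the *Wnt10b* and *Wnt1* pair, each read outward from its shared locus, are shown because the partners differed in counts. Each window runs from 250 bases before to 50 after the RefSeq gene start (GRCm38.p6), 5′ to 3′ on the strand of the gene, and covers chr11:59306680-59306979 for *Wnt9a*, chr11:59290702-59291001 for *Wnt3a*, chr15:98778101-98778400 for *Wnt10b* and chr15:98789607-98789906 for *Wnt1*. Capitals mark CpG dinucleotides.
Wnt9a: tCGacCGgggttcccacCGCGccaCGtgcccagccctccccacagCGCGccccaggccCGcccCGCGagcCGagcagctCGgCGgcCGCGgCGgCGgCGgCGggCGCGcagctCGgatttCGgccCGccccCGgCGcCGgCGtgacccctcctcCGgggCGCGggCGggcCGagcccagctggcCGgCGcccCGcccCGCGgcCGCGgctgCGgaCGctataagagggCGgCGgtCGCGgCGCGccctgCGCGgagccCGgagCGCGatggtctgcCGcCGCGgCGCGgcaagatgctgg
Wnt3a: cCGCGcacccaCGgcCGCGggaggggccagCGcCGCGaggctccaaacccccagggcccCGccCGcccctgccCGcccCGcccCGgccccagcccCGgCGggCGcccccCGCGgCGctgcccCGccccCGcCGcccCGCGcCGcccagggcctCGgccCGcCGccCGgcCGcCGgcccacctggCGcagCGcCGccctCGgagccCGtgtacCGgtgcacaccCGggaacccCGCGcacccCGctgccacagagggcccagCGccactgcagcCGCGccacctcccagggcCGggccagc
Wnt10b: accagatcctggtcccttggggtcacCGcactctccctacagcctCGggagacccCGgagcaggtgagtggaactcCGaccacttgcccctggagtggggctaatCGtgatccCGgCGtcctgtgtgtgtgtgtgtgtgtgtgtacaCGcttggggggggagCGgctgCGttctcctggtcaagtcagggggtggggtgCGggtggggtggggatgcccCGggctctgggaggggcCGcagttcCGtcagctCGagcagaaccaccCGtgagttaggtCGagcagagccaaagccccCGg
Wnt1: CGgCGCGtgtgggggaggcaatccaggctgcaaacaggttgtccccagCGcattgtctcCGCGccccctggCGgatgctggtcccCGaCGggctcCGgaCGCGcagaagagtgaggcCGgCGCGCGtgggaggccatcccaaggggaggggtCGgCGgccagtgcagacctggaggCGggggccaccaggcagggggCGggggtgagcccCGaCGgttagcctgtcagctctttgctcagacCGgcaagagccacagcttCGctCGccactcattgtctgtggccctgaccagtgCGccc
The windows held 58 CpG in *Wnt9a*, 45 in *Wnt3a*, 18 in *Wnt10b* and 26 in *Wnt1*, against a median of 7 over 32851 windows of the same length. *Wnt9a* had more CpG than 99.9% of windows, and *Wnt3a*, with its 12 UMIs, more than 98.1%. For *Wnt10b* and *Wnt1* these shares were 70.3% and 83.1%. None of the 4 held the letters CTTTGA on either strand, the core of the site that TCF and LEF factors bind, which 16% of all windows held.

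Of the receptors, *Fzd2* was the most abundant member over all kept cells. In FAP-like cells it stood at 173 and 167 CPM in WT and 165 and 181 CPM in KO, followed by 89.9 ± 9.45 CPM in chondrocyte-like and 73.2 ± 12.3 CPM in tenocyte-like cells. *Fzd7*, known for a role in satellite cells, measured 30.4 and 30.4 CPM in WT and 29.0 and 25.3 CPM in KO in FAP-like cells and 12.3 ± 1.03 CPM in myogenic-like cells. *Fzd8* led in chondrocyte-like cells with 49.7 and 56.5 CPM in WT and 53.5 and 45.8 CPM in KO, close to 42.7 ± 1.73 CPM in FAP-like cells. *Fzd5* reached 20.1 and 18.6 CPM in WT and 18.45 and 17.0 CPM in KO in tenocyte-like cells.

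The other Frizzled genes that reached 10 CPM led in endothelial-like, glial-like or chondrocyte-like cells. *Fzd4*, the receptor known for retinal vessel growth through norrin, was highest in endothelial-like cells with 136 and 124 CPM in WT and 129.8 and 139 CPM in KO. It was second in myogenic-like cells with 78.4 ± 6.76 CPM, the highest level of any member there, and both classes stood above FAP-like cells with 48.0 ± 4.71 CPM. *Fzd6*, a receptor known from planar polarity, had 67.5 and 63.3 CPM in WT and 65.9 and 64.4 CPM in KO in endothelial-like cells against 22.0 ± 5.37 CPM in the next class. *Fzd3*, known from axon guidance, had 114 and 101 CPM in WT and 103 and 103 CPM in KO in glial-like cells, 5.93-fold above the next class. *Fzd1* also led in glial-like cells, with 79.4 and 79.7 CPM in WT and 82.5 and 74.9 CPM in KO. *Fzd9* was 19.7-fold higher in chondrocyte-like cells, at 52.7 and 53.5 CPM in WT and 33.3 and 47.3 CPM in KO, than in the next class. *Fzd10* had 67 UMIs in all and stayed below 10 CPM in every class and fibroblast sub-cluster.

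By class mean, Lgr receptors were highest in glial-like and chondrocyte-like cells, and *Rspo2* and *Rspo3* in tenocyte-like and FAP-like cells, which also held *Lgr4* and *Lgr5*. *Lgr4*, the broadly used family member, was highest in glial-like cells with 139.7 and 138 CPM in WT and 158 and 113 CPM in KO. Chondrocyte-like, myogenic-like and FAP-like cells were close to each other, with 79.7, 73.3 and 71.0 CPM. *Lgr5*, a stem cell marker in gut and skin, stood in glial-like cells at 126 and 124 CPM in WT and 98.5 and 84.5 CPM in KO, and the next class, tenocyte-like cells, had 36.3 ± 4.72 CPM. *Lgr6* led in chondrocyte-like cells with 35.1 and 35.1 CPM in WT and 18.6 and 41.4 CPM in KO, a range that overlapped glial-like cells with 18.2 ± 0.815 CPM. *Rspo3* was highest in FAP-like cells with 47.5 and 46.9 CPM in WT and 47.6 and 47.2 CPM in KO. *Rspo2*, which is known for limb growth and for clustering of acetylcholine receptors, measured 20.6 and 42.4 CPM in WT and 17.5 and 39.8 CPM in KO in tenocyte-like cells and 25.6 ± 1.34 CPM in FAP-like cells. In myogenic-like cells all 4 R-spondins together summed to 0.872 CPM. *Rspo1* and *Rspo4* had 240 and 250 UMIs over all kept cells and stayed below 10 CPM in every class and fibroblast sub-cluster.

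Secreted inhibitors were strong in fibroblasts. *Sfrp2* stood in FAP-like cells at 151 and 179.8 CPM in WT and 142 and 153 CPM in KO. Tenocyte-like cells followed with 109 ± 26.5 CPM. In myogenic-like cells it was 46.3 ± 5.35 CPM, or 27.5% to 34.0% of the level in FAP-like cells of the same library. On that scale *Dcn* stood there at 0.695% to 0.816% and the summed FAP markers at 2.59% to 2.96%. The part of FAP RNA in this *Sfrp2* level was not tested. *Sfrp4* measured 47.8 and 28.1 CPM in WT and 43.6 and 38.5 CPM in KO in FAP-like cells and at most 3.61 CPM as a mean in any other class. *Sfrp1* and *Sfrp5* led in glial-like cells. *Sfrp1* had 98.8 and 155 CPM in WT and 122 and 161 CPM in KO there and 59.2 ± 4.99 CPM in FAP-like cells. *Sfrp5* had 71.3 and 84.6 CPM in WT and 70.8 and 109 CPM in KO, and the next class, chondrocyte-like cells, had 2.52 ± 1.25 CPM. Relative to FAP-like cells of the same library, *Sfrp1* in glial-like cells stood at 153% to 278%, *Lgr4* at 173% to 214% and *Lgr5* at 294% to 430%. *Fzd1* stood at 422% to 459%, *Fzd3* at 1033% to 1316%, *Sfrp5* at 3981% to 6887% and *Wnt6* at 4473% to 8646%. On the same scale summed FAP markers stood at 33.0% to 41.9% and *Dcn* at 4.69% to 5.55%. The part of FAP RNA in the glial levels was not tested.

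*Dkk2* was, with *Sfrp2*, the leading antagonist of FAP-like cells, with 158 and 158 CPM in WT and 137 and 178 CPM in KO. Tenocyte-like cells had 66.0 ± 1.92 CPM. *Dkk3*, a relative whose action on Wnt signalling is less clear, led in tenocyte-like cells with 101 and 109.8 CPM in WT and 82.3 and 125 CPM in KO. This level moved with the drawing of the class. The tenocyte cluster led by *Tnmd* had 118 ± 18.0 CPM and the one led by *Scx* 13.7 ± 2.50 CPM. The class mean was 31.3 CPM when members were kept among the clustering genes and 29.1 CPM when expression was centred within each library, since many *Kera* and *Tnmd* cells then fell in a cluster without a name. *Dkk1* had 169 UMIs and *Dkk4* 11 over all kept cells, and both stayed below 10 CPM in every class and fibroblast sub-cluster.

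FAP-like cells were clustered again, and 7 sub-clusters were named by a leading gene. The module differed sharply among them. The sub-cluster led by *Ly6a* carried 10 of 10 markers of adventitial-type progenitors, the one led by *Hpse2* 3 of 7 of the *Smoc2* *Hpse2* type, and those led by *Ccl11* and *Cldn1* each 4 of 6 of the *Ccl11* type. The sub-clusters led by *Top2a* and *Fmod* carried 6 of 6 cycling markers, and the leading genes of the *Fmod* sub-cluster also held the tendon and cartilage genes *Tnmd*, *Scx* and *Col2a1*. Muscle fibre transcripts such as *Acta1* led the *Hpse2* sub-cluster and smooth muscle transcripts such as *Acta2* the *Ccl11* sub-cluster beside the genes that name them. The *Anxa8* sub-cluster met no subtype.

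In *Ly6a* fibroblasts *Wnt2* stood at 122 and 90.6 CPM in WT and 91.5 and 107 CPM in KO, against 26.0 ± 3.05 CPM in *Ccl11* fibroblasts and 0.883 ± 0.483 CPM in *Hpse2* fibroblasts. *Wnt10b* stood at 20.6 and 12.1 CPM in WT and 15.9 and 15.1 CPM in KO in *Ly6a* fibroblasts and 0.156 ± 0.139 CPM in *Hpse2* fibroblasts. Its next sub-cluster, *Anxa8* fibroblasts, had a mean of 8.66 CPM, with a range that overlapped that of *Ly6a* fibroblasts. *Rspo3* and *Sfrp4* also had their highest means in *Ly6a* fibroblasts, with 72.8 ± 3.91 CPM and 97.1 ± 24.5 CPM. For *Sfrp4* the range overlapped that of *Anxa8* fibroblasts, which had a mean of 87.7 CPM. *Wnt5a* was present in every sub-cluster, from 42.1 CPM in *Fmod* fibroblasts to 104 CPM in *Ly6a* fibroblasts.

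*Anxa8* fibroblasts were the richest in antagonists. *Sfrp2* reached 531 and 492 CPM in WT and 403 and 484 CPM in KO there, and *Dkk2* 363 and 338 CPM in WT and 271 and 369 CPM in KO. The *Dkk2* range overlapped that of *Ly6a* fibroblasts, which had a mean of 238 CPM. In *Anxa8* fibroblasts *Lgr5* was 102 ± 18.8 CPM and *Rspo2* 53.6 ± 1.18 CPM. This sub-cluster made up 5.11% of FAP-like cells in KO replicate 1 and 10.7% to 14.0% in the other libraries. *Hpse2* fibroblasts, the most numerous with 8258 cells, led for *Fzd5* with 15.1 ± 0.729 CPM and *Fzd8* with 58.5 ± 3.35 CPM.

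Although both were of the *Ccl11* type, *Ccl11* and *Cldn1* fibroblasts differed in many members. *Sfrp1* was highest in *Ccl11* fibroblasts, with 187 and 172 CPM in WT and 141 and 156 CPM in KO. *Cldn1* fibroblasts, 468 cells, led for *Fzd2* with 318 and 289.8 CPM in WT and 267 and 309 CPM in KO. They also held *Sfrp5* at 39.4 and 43.3 CPM in WT and 55.3 and 52.7 CPM in KO and *Wnt6* at 10.7 and 23.4 CPM in WT and 29.5 and 11.4 CPM in KO, the members otherwise seen in glial-like cells. As means over 4 libraries, all other sub-clusters were below 1 CPM for *Sfrp5* and below 3 CPM for *Wnt6*. *Dkk2* was lowest there, with 43.6 ± 13.9 CPM.

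**Figure D3:**
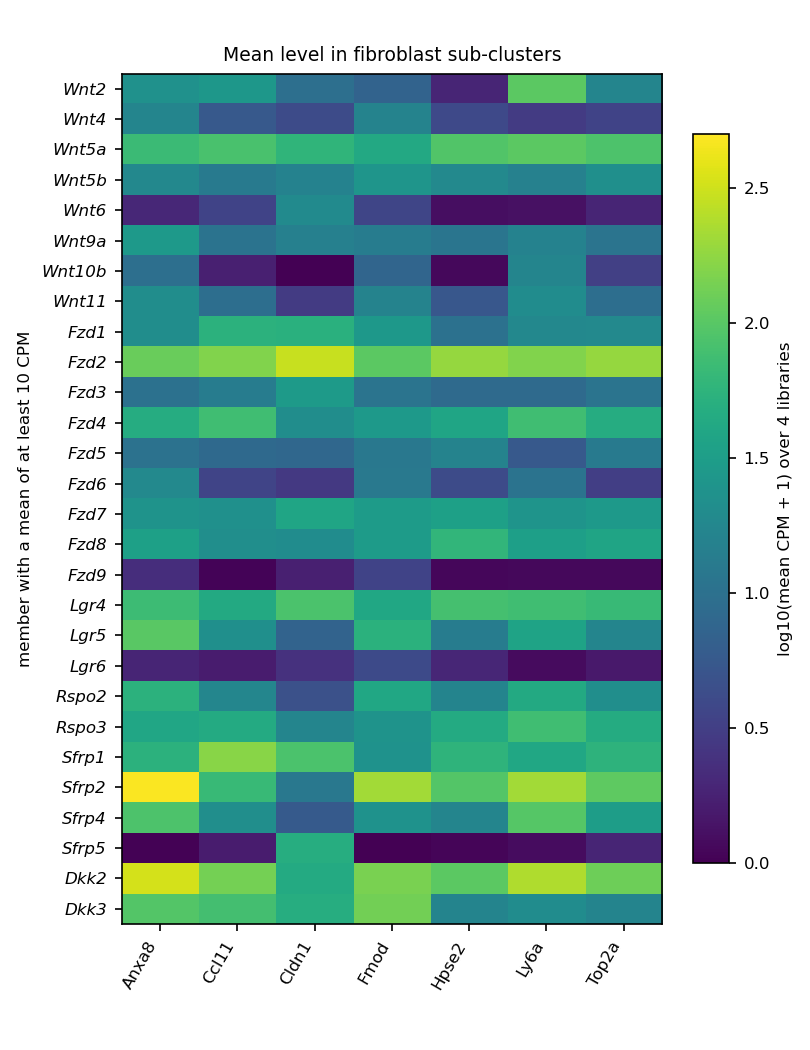
Mean CPM over 4 libraries, as log10(CPM + 1), of the same 28 members (rows) in 7 sub-clusters of FAP-like cells, each named by a leading gene (columns). *Wnt2* and *Wnt10b* are brightest in *Ly6a* fibroblasts, *Sfrp2* and *Dkk2* in *Anxa8* fibroblasts, and *Sfrp5* and *Wnt6* in *Cldn1* fibroblasts.

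A small cluster of glial-like cells, led by *Fabp7*, differed in the module from the class as a whole. *Wnt6* stood there at 8.001 CPM, *Sfrp5* at 22.8 CPM and *Lgr5* at 4.01 CPM, each under the lowest library of the whole class. It instead held *Wnt16* at 17.1 ± 15.3 CPM and *Wnt4* at 18.7 ± 5.72 CPM.

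Along the myogenic clusters, *Fzd4*, *Sfrp2* and *Wnt5b* were higher in progenitors than in differentiating cells. *Fzd4* stood at 106 ± 5.04 CPM in the cluster with progenitor markers such as *Pax7*, at 83.5 ± 10.4 CPM in cycling cells and at 20.8 ± 3.63 CPM in the cluster led by *Myog*. *Sfrp2* followed the same order with 64.3, 50.5 and 7.504 CPM, and *Wnt5b* with 26.4, 18.4 and 6.93 CPM. *Wnt9a* and *Fzd2* ran the other way. *Wnt9a* was 0.889, 1.88 and 11.0 CPM, and *Fzd2* 25.8, 30.9 and 45.1 CPM. Summed FAP markers were lower in the *Myog* cluster, at 1.09% to 1.47% of the FAP-like level, than in the *Msc* cluster, at 3.38% to 3.69%. Their part in the order of *Sfrp2* was not tested. Among 25 cells rich in *Tnnc2* and other contractile transcripts, *Wnt4* summed to 10 UMIs, too few to describe further.

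A small unnamed cluster of 127 cells, led by *Kctd16*, had the highest mean *Lgr5* level of any cluster. It was 34.9 and 137 CPM in WT and 406 and 501 CPM in KO, and in WT replicate 1 it lay under that of glial-like cells. The cluster held only 143230 and 160093 UMIs of all genes in WT and 142928 and 79785 in KO, so these levels rest on few *Lgr5* UMIs. *Dkk2* there was 303 ± 71.5 CPM and *Rspo2* 146 ± 131 CPM. Its cells had a median of 3892 UMIs, below that of every named class, and it met no marker list. KO replicate 2 gave 18 of them.

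Shares of cells with a UMI were compared at equal depth. After each cell was thinned to 2000 UMIs, a *Wnt6* UMI was found in 14.7% ± 0.605 of glial-like cells (48.8% unthinned, median depth 10788 UMIs) and in 0.276% ± 0.552 of macrophage-like cells (0.721% unthinned, median depth 11739 UMIs). For *Fzd4* the thinned shares were 22.8% ± 2.25 in endothelial-like, 14.1% ± 1.70 in myogenic-like and 0.261% ± 0.303 in macrophage-like cells, and unthinned 63.3%, 44.7% and 1.79%. *Wnt2* was found in 3.81% ± 0.299 of thinned FAP-like cells and 11.0% unthinned, and in no macrophage-like cell either way, where 0 of 763 cells leaves room for a share up to 0.393%. Thinning left out 30 FAP-like, 3 glial-like, 13 myogenic-like, 17 endothelial-like and 2 macrophage-like cells as too shallow.

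To ask whether the loss of *SYISL* changed the module, edgeR's quasi-likelihood test was run on the UMI sums of each class, 1 sum a library, with p-values adjusted over all genes tested. No member passed an adjusted p of 0.05 in any of the 16 comparisons of KO with WT. In FAP-like cells 35 members were tested and 0 were called (0% of all 18403 genes tested), and 0 had an unadjusted p under 0.05, against 3.04% of all genes. In myogenic-like cells 22 were tested and 0 called (0% of 14634 genes), with 1 at an unadjusted p under 0.05, against 3.52% of all genes. Over all kept cells 37 were tested and 0 called (0% of 20419 genes), with 2 at an unadjusted p under 0.05, against 4.71%. DESeq2 called 0 members in every comparison, and the share of all genes it called is not given here. The KO libraries did not overlap the WT libraries for 11 of the 35 members in FAP-like cells, where 31.1% of all genes did not, and for 5 of the 22 in myogenic-like cells, where 33.4% did not.

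The median log2 fold change of KO over WT was 0.01 for the members in FAP-like cells and 0.02 in myogenic-like cells, beside -0.00075 and 0.0018 for all genes tested. The estimate was above 0 for 18 and below 0 for 17 members in FAP-like cells, and above 0 for 12 and below 0 for 10 in myogenic-like cells. Over all kept cells 11 were above and 26 below 0, with a median of -0.07 beside -0.0039 for all genes. In *Hpse2* fibroblasts 8 were above and 19 below 0, and in *Cldn1* fibroblasts 13 above and 7 below. None of these members passed the test, and the balance of directions was not tested.

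**Figure D4:**
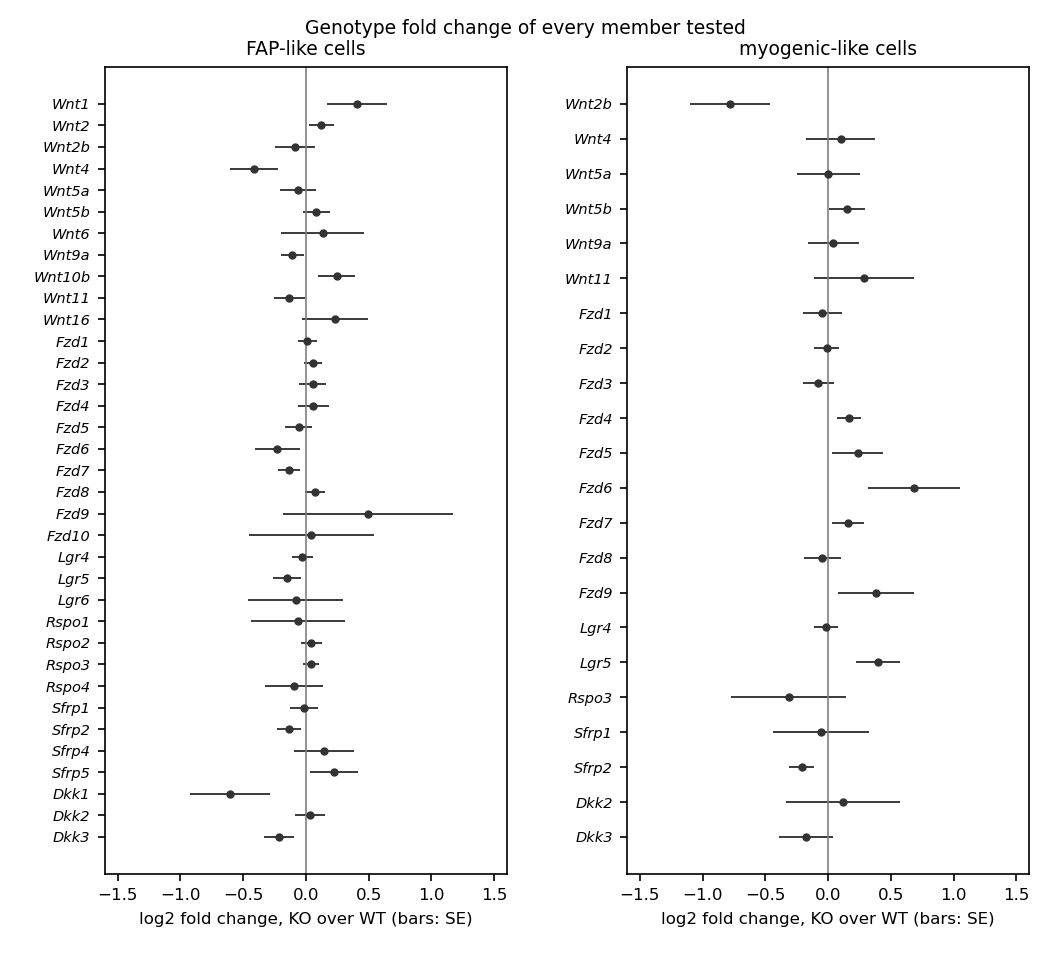
Log2 fold change of KO over WT with its standard error (SE, bars) for the 35 members tested in FAP-like cells and the 22 tested in myogenic-like cells. Most estimates lie near 0, and the widest bars belong to genes of low counts.

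Among the leading members of FAP-like cells, *Fzd2* had a log2 fold change of 0.06 (SE 0.07). *Dkk2* had 0.03 (SE 0.12), *Sfrp2* -0.13 (SE 0.09) and *Wnt5a* -0.06 (SE 0.14), all with overlapping groups and an edgeR adjusted p of 0.998. *Wnt4*, the member with the smallest unadjusted p in this class, stood at 4.90 and 5.56 CPM in WT and 3.19 and 4.48 CPM in KO. The KO values were both under the WT values, and the log2 fold change was -0.41 (SE 0.19), with 0.998 as the adjusted p by edgeR. In myogenic-like cells the smallest unadjusted p was that of *Wnt2b*, at 1.90 and 1.59 CPM in WT and 1.05 and 0.9201 CPM in KO. Its log2 fold change was -0.78 (SE 0.32), with an edgeR adjusted p of 0.969, and the groups did not overlap.

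**Figure D5:**
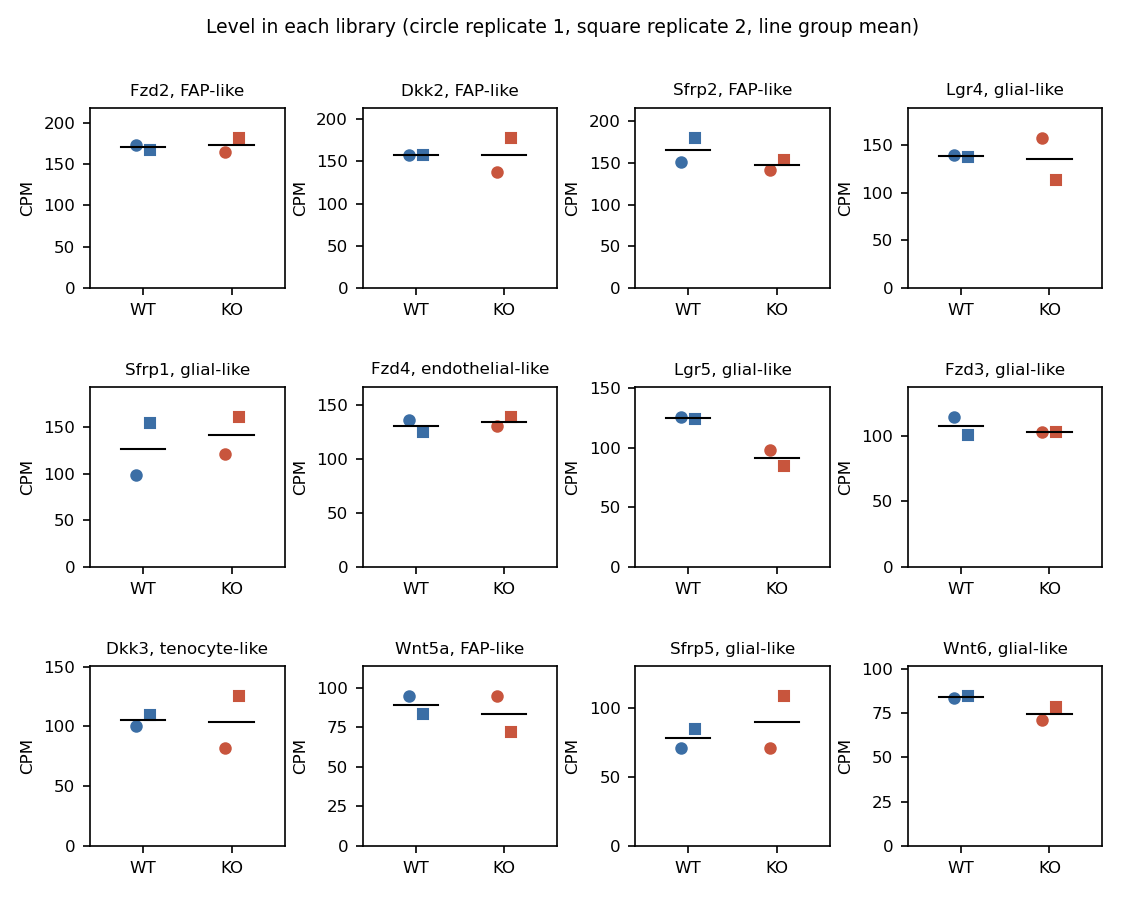
CPM of the 12 members with the highest class mean, each in its leading class, in the 2 WT and 2 KO libraries (points) with the group mean (line). The groups overlap in 10 of the 12 panels, and for *Lgr5* and *Wnt6* in glial-like cells the KO points lie under the WT points. Of all genes tested, the groups did not overlap for 31.1% in FAP-like and 33.4% in myogenic-like cells. This share was not computed for glial-like cells.

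Glial-like cells held the members with the smallest unadjusted p of the 16 comparisons. *Lgr5* had a log2 fold change of -0.44 (SE 0.10) and an unadjusted edgeR p of 0.00239, with an adjusted p of 0.997. The 2 KO values were under the 2 WT values. The *Fabp7* cluster, where *Lgr5* was low, made up 15.1% and 15.96% of glial-like cells in WT and 19.8% and 20.4% in KO, and its part in this difference was not tested. *Dkk2*, named here after its values were seen, stood in glial-like cells at 18.4995 and 25.5 CPM in WT and 14.3 and 10.2 CPM in KO with a log2 fold change of -0.81 (SE 0.23). Summed FAP markers in glial-like cells were 10702 and 11530 CPM in WT and 10368 and 10939 CPM in KO. *Lgr5* and *Dkk2* were called in this class when genes of low counts were kept (adjusted p = 0.0380 and 0.0124 by edgeR). They were the members called there under any alternative run. Across all settings the number of all genes called in glial-like cells ran from 0 to 86, and the number in that setting is not given here. In all, 24 members were tested in glial-like cells and 0 called (0% of 12894 genes), with 3 at an unadjusted p under 0.05 against 3.6% of all genes.

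The other leading members of glial-like cells had smaller changes. *Wnt6* had a log2 fold change of -0.16 (SE 0.10), *Lgr4* -0.02 (SE 0.14), *Fzd3* -0.06 (SE 0.10), *Sfrp1* 0.17 (SE 0.21) and *Sfrp5* 0.21 (SE 0.20), each with an edgeR adjusted p of 0.997. The groups overlapped for all of these but *Wnt6*.

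In chondrocyte-like cells 26 members were tested and 0 called (0% of 13126 genes), with 3 at an unadjusted p under 0.05 against 1.97% of all genes. *Fzd4* had the smallest p, with 7.30 and 11.5 CPM in WT and 16.3 and 16.2 CPM in KO and a log2 fold change of 0.76 (SE 0.25) (adjusted p = 1.00, edgeR). Tenocyte-like cells had 28 members tested and 0 called (0% of 13225 genes). *Wnt11* had the smallest p there, with 5.34 and 8.76 CPM in WT and 1.66 and 4.58 CPM in KO and a log2 fold change of -1.06 (SE 0.45), while the leading member *Dkk3* had 0.02 (SE 0.18) (adjusted p = 1.00 by edgeR for both). The estimate for *Wnt11* ranged from -2.05 without KO replicate 2 to -0.59 without KO replicate 1.

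Endothelial-like cells had 11 members tested and 0 called, where 0.0787% of 11433 genes were. Their leading member *Fzd4* had a log2 fold change of 0.06 (SE 0.10). *Dkk2* had the smallest p, with 44.7 and 23.8 CPM in WT and 14.7 and 22.0 CPM in KO and a log2 fold change of -0.91 (SE 0.29) (adjusted p = 0.999 by edgeR for both genes). It was called when genes of low counts were kept (adjusted p = 0.00944, edgeR). Across all settings the number of all genes called in this class ran from 0 to 111, and the number in that setting is not given here. Without KO replicate 2, which leaves 1 KO library, the log2 fold change of *Dkk2* was -1.21. Without WT replicate 1, which stood above the other 3 libraries, the log2 fold change was -0.36 and was not called. The *Dkk2* level in endothelial-like cells was 10.7% to 28.3% of that in FAP-like cells. On that scale *Dcn* stood at 0.603% to 0.883% and the summed FAP markers at 1.26% to 1.59%. The part of FAP RNA in this *Dkk2* level was not tested.

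Smooth muscle or pericyte-like cells had 17 members tested and 0 called, where 0.00815% of 12268 genes were, and the smallest p was that of *Dkk3*, with a log2 fold change of -0.34 (SE 0.19) (adjusted p = 0.989, edgeR). Macrophage-like cells had 3 tested and 0 called (0% of 10272 genes), and mast-like cells 4 tested and 0 called, where 0.0284% of 7032 genes were. *Lgr4* had the smallest p in both, with log2 fold changes of 0.53 (SE 0.32) and 0.85 (SE 0.52) (adjusted p = 0.998 and 0.835 by edgeR). In mast-like cells the estimate ranged from 0.28 without WT replicate 2 to 1.72 without WT replicate 1. Summed FAP markers there were 860 and 699 CPM in WT and 2491 and 1875 CPM in KO, and their part in the *Lgr4* difference was not tested.

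In the fibroblast sub-clusters, too, no member was called, while the share of all genes called was 0% in *Hpse2*, *Ly6a*, *Top2a*, *Anxa8* and *Ccl11* fibroblasts and 0.0295% in *Cldn1* fibroblasts. The sub-cluster led by *Fmod* held 42 cells in KO replicate 1 and was not tested. Between 20 and 27 members were tested in each of the 6 others. An unadjusted p under 0.05 was reached by 2 of 27 members in *Hpse2* (3.07% of all genes), 0 of 27 in *Ly6a* (3.76%), 2 of 25 in *Top2a* (3.87%), 0 of 26 in *Anxa8* (2.85%), 3 of 25 in *Ccl11* (5.7%) and 3 of 20 in *Cldn1* fibroblasts (5.48%). In *Ccl11* fibroblasts *Dkk2*, also named after its values were seen, stood at 154 and 161 CPM in WT and 85.4 and 147 CPM in KO. Its log2 fold change was -0.42 (SE 0.18) with all libraries (adjusted p = 0.873, edgeR). Without KO replicate 2, which leaves 1 KO library at 85.4 CPM, it was -0.87.

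An interaction term compared the effect of KO in myogenic-like cells with that in FAP-like cells. Of 35 members 0 were called (0% of 18108 genes), and 4 had an unadjusted p under 0.05, namely *Fzd6*, *Fzd7*, *Lgr5* and *Rspo2*, against 3.14% of all genes. *Lgr5* had the smallest, with a difference of log2 fold changes of 0.54 (SE 0.17) and an edgeR adjusted p of 1.00.

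The rest of the pathway was described with a list of 59 genes from secretion to targets. Of these, 54 were tested in FAP-like cells and 49 in myogenic-like cells, and 0 were called in either or in any other comparison. In FAP-like cells 1 had an unadjusted p under 0.05 in each direction, *Myc* (0.34, SE 0.11) and *Sostdc1* (-0.45, SE 0.15), where the values are log2 fold changes and 3.04% of all genes had such a p. *Wls*, which carries Wnt proteins to the cell surface, was found in every class, from 16.6 CPM in mast-like to 205 CPM in tenocyte-like cells. The co-receptor *Ror1* stood at 290.3 CPM in FAP-like, 293 CPM in smooth muscle or pericyte-like and 167 CPM in myogenic-like cells. *Musk*, the receptor kinase of the nerve-muscle synapse, was 60.7 CPM in myogenic-like cells.

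Of the inhibitors outside the module, 3 are given by class. *Wif1* stood at 343 CPM and *Frzb* at 30.6 CPM in chondrocyte-like cells, *Wif1* also at 139 CPM in tenocyte-like cells, and *Sostdc1* at 922 CPM in glial-like cells. Of the feedback targets of beta-catenin signalling, *Axin2* was highest in chondrocyte-like and glial-like cells, with 13.2 and 11.4 CPM, and stood at 4.97 CPM in FAP-like and 2.51 CPM in myogenic-like cells. *Znrf3*, the ligase that removes Frizzled, was 108 CPM in myogenic-like, 103 CPM in chondrocyte-like and 30.02 CPM in FAP-like cells.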

How the data were processed

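Leg muscle cells of 4 libraries were profiled with a 3′ droplet kit. The authors made the deposited gene-by-cell UMI counts with Cell Ranger 7.2.0 against mm10; whether intronic reads were counted is not given in the sources used here, so levels of long genes can hold unspliced RNA. Levels of different genes are UMI counts of 3′ ends and are not scaled to length. Files were mapped to samples by their labels, and no column was left out.

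The study's stated limits on cells were applied: between 1000 and 6000 genes, between 1000 and 25000 UMIs, and a mitochondrial share below 8%. Cells were clustered with scanpy 1.11.5 (Python 3.11) on 3000 variable genes and 30 principal components (20 neighbours, Leiden resolution 0.3), without members or pathway genes and without batch correction. Clusters were named from marker lists, by a rule set after the data were seen, so that a difference from the study may come from rebuilt names. A cluster whose markers pointed to another class stayed unnamed. No doublet caller was applied in the main analysis, and removing the 798 cells called by Scrublet was an alternative.

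UMIs were summed per library and class. Genes passing filterByExpr were tested with edgeR 4.0.16 (R 4.3.3), using TMM factors, quasi-likelihood tests and Benjamini-Hochberg adjustment over all genes tested, with a threshold of 0.05 and at least 50 cells per library. The interaction used the library as a block. The tests were also run on simulated counts with known changes of 1.5-fold and 2-fold, and part of these changes was missed at the threshold. DESeq2 1.42.0, RLE factors, no filter, a replicate block, each library left out, looser cell limits, resolution 1, members kept among the clustering genes, centring within library and sub-clusters at resolution 0.6 were the alternatives. Levels in each library were given for members reaching 10 CPM in a class or fibroblast sub-cluster, and fold changes for the 12 members with the highest class mean and for the member with the smallest unadjusted p in each class. The members, lists and tests were chosen with earlier results of these data known. Errors are SD over libraries (n = 4) unless stated. A limit on a share with no UMI is 3 counts of the cells, and covers counting error only.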

Additional observations from a re-analysis of the deposited data

How the results depend on the processing

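Of 192 alternative counts of called members, 187 stayed at 0 and 5 did not. Without the filter on low counts 2 members were called in glial-like cells and 1 in endothelial-like cells, and without KO replicate 2 the count was 1 in endothelial-like cells and 1 in *Ccl11* fibroblasts. That setting leaves 1 KO library, whose spread is assumed to equal that of the WT libraries. With a replicate block, 2 members were called in glial-like cells, *Lgr5* (log2 fold change -0.44, edgeR adjusted p = 0.000957) and *Dkk2* (-0.80, adjusted p = 0.0135), and 0 in every other comparison that had a block. The labels give no pairing, so the samples share only a number, and deviations of same-numbered libraries correlated at 0.457 over all kept cells, 0.472 in FAP-like and 0.284 in myogenic-like cells (across genes, with 2 pairs). Over the alternatives the adjusted p ran from 0.000957 to 1.00 for *Lgr5* in glial-like cells.

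Of 20 log2 fold changes, 9 changed sign when 1 library was left out. In FAP-like cells they ranged from -0.0116 to 0.13 for *Fzd2*, -0.17 to 0.21 for *Dkk2* and -0.28 to 0.12 for *Wnt5a*. In glial-like cells the ranges were -0.27 to 0.18 for *Lgr4*, -0.12 to 0.53 for *Sfrp1*, -0.14 to 0.0378 for *Fzd3* and -0.14 to 0.51 for *Sfrp5*. For *Fzd4* in endothelial-like cells the range was -0.0180 to 0.14 and for *Dkk3* in tenocyte-like cells -0.32 to 0.29. *Sfrp2* in FAP-like cells was 0.0081 at resolution 1, and *Dkk3* in tenocyte-like cells -0.0027 with the replicate block. Without KO replicate 1 or KO replicate 2 the value was -0.19 or -0.68 for *Wnt4* in FAP-like cells, -0.0741 or -0.24 for *Wnt6* in glial-like cells and 0.31 or 0.73 for *Lgr4* in macrophage-like cells, and without WT replicate 1 or WT replicate 2 it was -0.51 or -0.17 for *Dkk3* in smooth muscle or pericyte-like cells. The cause was not tested. The level of *Sfrp2* in FAP-like cells was 132 CPM with members kept among the clustering genes.

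Sub-clusters drawn at resolution 0.6 held none that matched *Hpse2* or *Anxa8* fibroblasts, so that alternative was not run for these. The number of all genes called depended on the setting. It ran from 0 to 58 over all kept cells, 0 to 8 in FAP-like and myogenic-like cells and 0 to 212 in mast-like cells. Where an alternative called a member, it ran from 0 to 86 in glial-like cells, 0 to 111 in endothelial-like cells and 0 to 117 in *Ccl11* fibroblasts. These ranges span all settings, and the number in each single setting is not given here. With 2 libraries per genotype, a p that missed the threshold does not show that levels were equal.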
